A study of Caenorhabditis elegans with 16 samples.

Results

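The pals genes of Caenorhabditis elegans are a family of related genes that encode proteins with an ALS2CR12 signature, and their levels were followed here in mixed-stage embryos that carry mutant alleles of the decapping cofactor genes edc-3, edc-4 or both. The family was taken as every gene whose symbol begins with pals-. The deposited table lists these genes under older names, so that 0 of its symbols begin with pals- (pals-16 is listed as Y82E9BR.4, pals-26 as B0284.1 and pals-39 as dct-3). Members were therefore found by WormBase gene identifier, which gave 38 of the 46726 genes in the table. Of these, 37 were matched through a table of current gene names and 1, the pseudogene pals-36, through its RefSeq locus tag. The reference tables hold 39 pals- symbols, and the remaining one, pals-21, was not analysed here.

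The 4 genotypes were edc-3(ok1427) in strain RB1311, edc-4(qe49) in strain FD135, the double mutant edc-3(ok1427); edc-4(qe49) in strain FD146, and WT, strain N2. Each had 4 biological replicates, numbered 2 to 5, of total RNA, depleted of ribosomal RNA by the library kit, from untreated embryos that were collected by bleaching from animals grown at 16 °C. The series' design text gives FD135 for the double mutant as well, whereas the labels of its samples give FD146. Each genotype was 1 strain, so an allele and any other difference between the strains cannot be told apart.

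Pals genes are best known for the intracellular pathogen response, a set of genes that worms switch on, mainly in the intestine, when they are infected by microsporidia or by the Orsay virus. Some members regulate the response and others are among the genes it induces. PALS-22 holds the response down and PALS-25, encoded by the adjacent gene, promotes it. PALS-17 is likewise a negative regulator, and PALS-16 and PALS-20 are positive regulators. EDC-3 and EDC-4 are conserved scaffold proteins of processing bodies that help the decapping enzyme remove the cap of an mRNA before it is degraded.

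Libraries held 34.1 to 52.9 M counted reads, of which 16.6% to 23.5% fell on 22 annotated ribosomal RNA genes. The edc-4 transcript averaged 176 ± 22.8 CPM (counts scaled to library size) in edc-3 embryos, 31.9 ± 2.62 CPM in edc-4 embryos, 26.1 ± 4.36 CPM in double mutant embryos and 168 ± 20.5 CPM in WT embryos (SD, n = 4 each). The edc-3 transcript averaged 62.3 ± 5.55, 92.5 ± 16.3, 72.8 ± 7.49 and 85.4 ± 11.5 CPM in edc-3, edc-4, double mutant and WT embryos, and it passed the test in no mutant. Whether reads of edc-3 lie inside the sequence altered by ok1427 was not examined, so this level does not check that label. The summed level of 14 early zygotic genes ran over 230 to 520 CPM in single libraries and that of 20 muscle genes over 3527 to 8261 CPM. Replicate 4 of edc-4 and replicate 4 of the double mutant had the highest early zygotic sums, and replicate 4 of WT the lowest. Embryonic markers were thus abundant, while the yolk protein genes vit-1 to vit-6, which adult intestine expresses, summed to 0.989 to 2.74 CPM and 11 sperm genes to 0.922 to 1.32 CPM, with msp-19 and msp-38 at 0. A list of 8 larval and adult cuticle genes was not low as a sum, at 128 to 264 CPM. Of these, dpy-7 averaged 186 CPM and the other 7 under 1 CPM. In bulk RNA, fewer cells of a type and less RNA per cell cannot be told apart.

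The family was weakly expressed in embryos, and most of its RNA came from chromosome III. Of the 38 members, 21 passed the filter on low counts and were tested, and 17 did not pass it. The tested members had 115 to 7435 counts over the 16 libraries. The untested members had at most 22 counts in any library. No reads were counted for pals-10, and 3 counts over the 688.883 M reads of all libraries would correspond to 0.00435 CPM. The mean level over all libraries was above 1 CPM for 11 members, and 10 of the 21 tested members lay below that level.

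Members lie in clusters, as tandem copies do. Of the 38 members, 15 are on chromosome I, 13 on III, 2 on IV and 8 on V, and 33 of them fall into 6 groups in which neighbours are less than 100 kb apart. The largest group, on chromosome I at 13083321 to 13144623 (WBcel235), packs 14 members, pals-5 among them, into 61.3 kb. Of those 14, 4 were tested, and the whole group supplied 3.43% of the family's summed CPM. The chromosome III group of pals-24, pals-23, pals-22 and pals-25 (120435 to 137975) supplied 54.7%. A second chromosome III group, of pals-40, pals-20, pals-17, pals-16, pals-19 and pals-18 (1376945 to 1406263), supplied 26.3%. The third, of pals-26, pals-27 and pals-28 (4375154 to 4387757), supplied 8.47%, which brought chromosome III to 89.5% of the family's reads. Another annotated gene overlaps 15 of the members, 9 on the same strand and 8 on the other. Counts of members that overlap one another, such as pals-3 with pals-12 and pals-19 with pals-18, and of close tandem copies may have been split or lost in the authors' counting and are uncertain.

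Levels between members were compared as CPM per kb of exon. The regulators pals-22 and pals-25 led with 10.5 and 9.98 CPM per kb over all libraries, followed by pals-19 with 4.60, pals-24 with 4.08 and pals-16 with 2.37. The order of pals-22 and pals-25 did not hold across genotypes: pals-22 had 9.49 ± 0.951 and pals-25 10.1 ± 1.04 CPM per kb in edc-4 embryos, and 11.1 ± 2.32 and 9.66 ± 1.58 CPM per kb in WT embryos (SD, n = 4), within the spread of either gene. Likewise pals-16, pals-17 (2.33 CPM per kb) and pals-23 (2.25 CPM per kb) lay closer together than the spread of their libraries. The values by member show a pair of regulators well above the rest, a middle tier on chromosome III with pals-34 from chromosome V, and a low tier that holds every member on chromosome I.

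**Figure D1:**
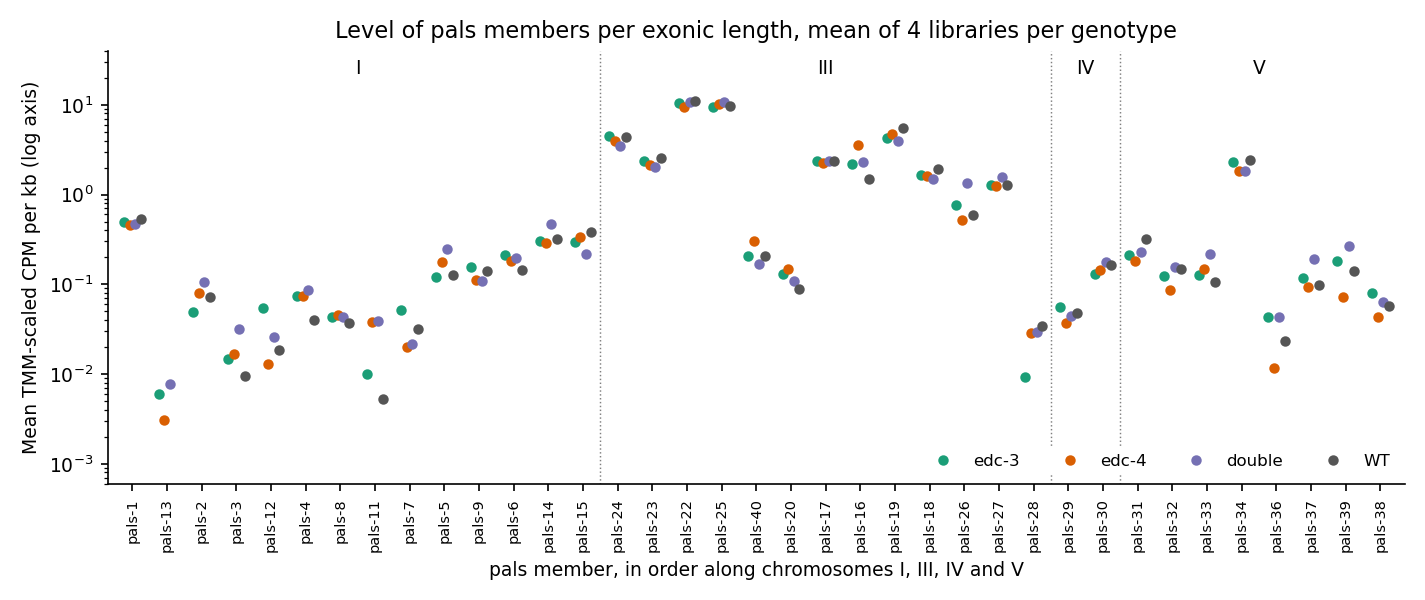
Mean level of each pals member in CPM per kb of exon (log axis) in edc-3, edc-4, double mutant and WT embryos (4 libraries each), ordered along chromosomes I, III, IV and V. pals-22 and pals-25 stand highest near 10.5 and 9.98 CPM per kb over all libraries; pals-10 and the WT value of pals-13 were 0 and are not drawn.

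The summed level of the family overlapped between genotypes. Its summed level was 48.9, 44.6, 45.7 and 59.4 CPM in the edc-3 libraries (replicates 2 to 5 in order), 54.7, 48.6, 42.1 and 49.8 CPM in the edc-4 libraries, 50.7, 52.5, 50.7 and 52.1 CPM in the double mutant libraries and 45.7, 45.2, 64.7 and 49.2 CPM in the WT libraries. The sums overlapped in every pair of genotypes. The highest value, WT replicate 4, was also the library with the lowest early zygotic sum, while the lowest, edc-4 replicate 4, had the highest early zygotic sum. Other libraries did not follow that order. Double mutant replicate 4 had an early zygotic sum of 514 CPM at a family sum of 50.7 CPM, and edc-3 replicate 5 had 303 CPM at 59.4 CPM. The part of embryo stage in these sums was not tested.

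**Figure D2:**
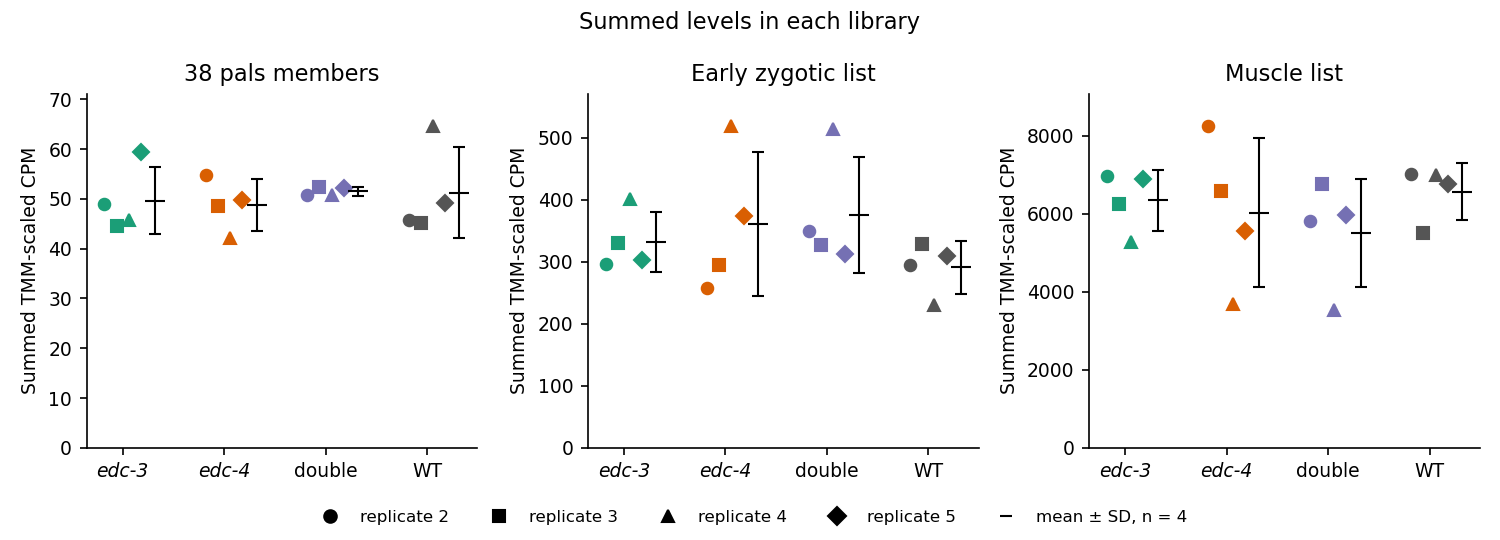
Summed level in CPM of the 38 pals members, of the early zygotic list and of the muscle list in each library of edc-3, edc-4, double mutant and WT embryos (symbols mark replicates 2 to 5; bars are mean ± SD, n = 4). Family sums lay between 42.1 and 64.7 CPM and overlapped between all genotypes, and replicate 4 libraries lay at the ends of the early zygotic list.

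Each mutant was next compared with WT, gene by gene, to ask which members changed with which allele. All tested genes entered 1 edgeR quasi-likelihood fit, and a gene was called when its Benjamini-Hochberg adjusted p over 16880 genes was under 0.05. In edc-3 embryos 0 of 21 tested members were called by edgeR, DESeq2 or limma voom, and edgeR called 0.142% of all tested genes. There 1 member, pals-16, had an unadjusted edgeR p under 0.05, as did 2.65% of all tested genes. In edc-4 embryos 1 member, pals-16, was called, and it was higher. Again 0.142% of all tested genes were called. An unadjusted edgeR p under 0.05 was found there for 1 member and 4.98% of all tested genes. In the double mutant 1 member, pals-26, was called, also higher, against 0.207% of all tested genes. There 4 members, 3 of them higher, had an unadjusted edgeR p under 0.05, as did 11.5% of all tested genes. No member was called lower in any mutant.

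The 2 called members were pals-16, called in edc-4 embryos, and pals-26, called in the double mutant. Both were higher in all double mutant libraries than in all WT libraries. Of all tested genes 3.48% separated in that direction and 7.43% in either direction. The transcript of pals-16, a positive regulator of the pathogen response (chromosome III, 1399970 to 1401401, plus strand), reached 2.56, 2.70, 1.81 and 2.35 CPM in edc-3 libraries, 4.55, 3.83, 2.91 and 3.89 CPM in edc-4 libraries, 2.60, 2.28, 2.57 and 2.38 CPM in double mutant libraries and 1.34, 1.99, 1.44 and 1.58 CPM in WT libraries. Every edc-4 library exceeded every WT library, every double mutant library did so too but by less, and the edc-3 libraries overlapped WT at their low end. The rise in edc-4 embryos was 1.26 on the log2 scale (SE 0.18, 2.39-fold; edgeR quasi-likelihood adjusted p = 0.00421). In the double mutant the log2 fold change was 0.63 (SE 0.19, adjusted p = 0.317) and in edc-3 embryos 0.57 (SE 0.19, adjusted p = 0.9999), neither of which passed edgeR's test over all genes. Their unadjusted edgeR p-values were 0.00349 and 0.00713. With an embryo stage score from the marker lists as a covariate, the edc-4 difference was 1.29 (adjusted p = 0.000481 by edgeR), and without the 4 libraries numbered 4 it was 1.33 (adjusted p = 0.00601). It lost its call when only the edc-4 and WT libraries were fitted (adjusted p = 0.0778).

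The transcript of pals-26 (chromosome III, 4375154 to 4378907, plus strand) reached 1.77, 1.72, 1.98 and 2.90 CPM in edc-3 libraries, 1.30, 1.16, 1.62 and 1.59 CPM in edc-4 libraries, 3.27, 3.32, 2.99 and 4.89 CPM in double mutant libraries and 1.73, 1.47, 1.89 and 1.39 CPM in WT libraries. The 4 double mutant libraries were the 4 highest of all 16, and the single mutants overlapped WT. The rise over WT was 1.16 on the log2 scale (SE 0.21, 2.23-fold; edgeR quasi-likelihood adjusted p = 0.0264). In edc-3 embryos the log2 fold change was 0.37 (SE 0.22), with a 95% interval of -0.08 to 0.83, and in edc-4 embryos it was -0.20 (SE 0.22), with an interval of -0.66 to 0.27. Early zygotic sums ran over 312 to 514 CPM in double mutant libraries and 230 to 330 CPM in WT libraries. With the stage score as covariate the double mutant difference was 1.23 (adjusted p = 0.00883 by edgeR) and without the libraries numbered 4 it was 1.32 (adjusted p = 0.0398). The call was lost without replicate 2 or 5 of the double mutant, without replicate 2, 3 or 5 of WT, and without TMM factors, where its edgeR adjusted p ran up to 0.116.

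**Figure D3:**
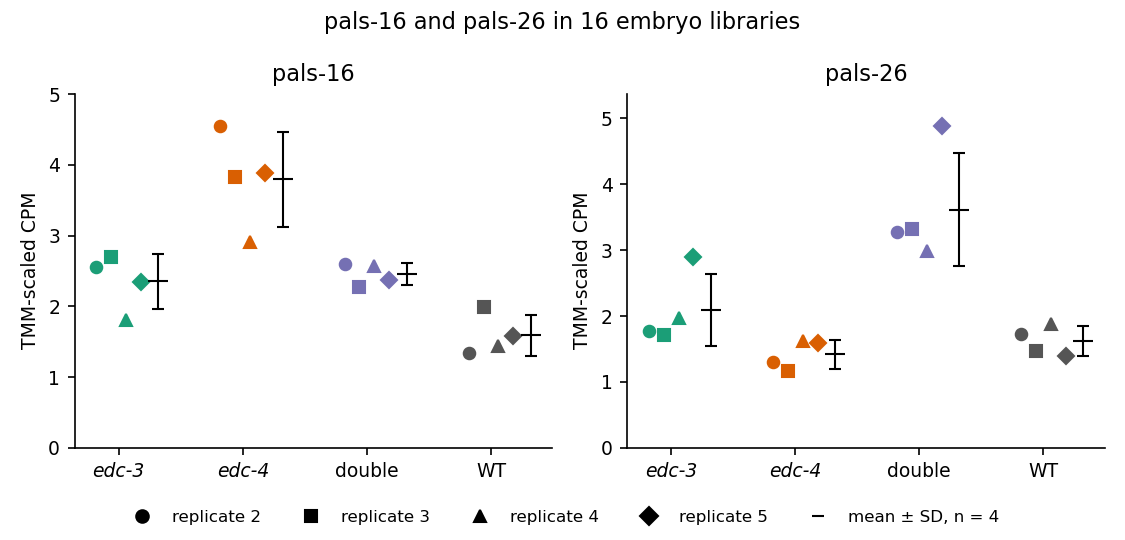
Level of pals-16 and pals-26 in CPM in each library of edc-3, edc-4, double mutant and WT embryos (symbols mark replicates 2 to 5; bars are mean ± SD, n = 4). For pals-16 the edc-4 libraries sit between 2.91 and 4.55 CPM and the WT libraries between 1.34 and 1.99 CPM; for pals-26 the double mutant libraries sit between 2.99 and 4.89 CPM, above all others.

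Libraries that did not overlap between groups were also counted, over all tested genes. No tested member separated edc-3 from WT libraries, where 1.91% of all genes did. In edc-4 against WT 1 member, pals-16, did so (all genes, 2.3%), and in the double mutant against WT 2 tested members, pals-16 and pals-26, did so (all genes, 7.43%). In all of these the member was higher in the mutant.

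The double mutant was also compared with each single mutant, from which it differs by 1 of the 2 alleles and by strain. Against edc-3 embryos 0 of 21 members were called in the edgeR fit (0.0355% of all genes, and 0 members with DESeq2 or limma voom). An unadjusted edgeR p under 0.05 was found for 2 members and for 5.01% of all tested genes. The 2 members were pals-5 with a log2 fold change of 1.02 (SE 0.42) and pals-26 with 0.78 (SE 0.21, adjusted p = 0.651). Both were higher in all double mutant libraries than in all edc-3 libraries. Of all genes 2.52% separated in that direction and 4.39% in either direction. For pals-5 it rested on 8 to 13 counts in each double mutant library and 4 to 8 in each edc-3 library. Against edc-4 embryos an unadjusted edgeR p under 0.05 was found for 4 members, 3 of them higher, and for 2.81% of all tested genes. There 1 member was called (0.0296% of all genes), namely pals-26, which rose by 1.35 on the log2 scale (SE 0.22, edgeR adjusted p = 0.0266). It and pals-16 were the members whose libraries did not overlap there, against 2.1% of all genes. For pals-16 the double mutant libraries were all lower than the edc-4 libraries, with a log2 fold change of -0.63 (SE 0.18, edgeR adjusted p = 0.9999), which did not pass the test. The call on pals-26 against edc-4 was lost without the libraries numbered 4 and without TMM factors. Leaving out replicate 2, 3 or 5 of edc-4 or of the double mutant ended it too, with edgeR adjusted p-values up to 0.153.

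The 2 by 2 design also gives the difference that goes with each allele, averaged over both backgrounds. For the edc-3 allele 1 member, pals-26, was called (0.148% of all genes), with an average log2 difference of 0.86 (SE 0.15, edgeR adjusted p = 0.0189), which lost its call without TMM factors, replicate 3 of edc-4, replicate 5 of the double mutant, or replicate 3 or 5 of WT. It joins 0.37 for edc-3 against WT and 1.35 for the double mutant against edc-4. For the edc-4 allele 1 member, pals-16, was called (0.195% of all genes), with 0.66 (SE 0.13, edgeR adjusted p = 0.0438). This average joins unlike log2 differences, 1.26 (SE 0.18) for edc-4 against WT and 0.06 (SE 0.18) for the double mutant against edc-3. The call on the average held in 6 of 25 alternative settings, among them 2 of the 16 that leave out a library (edc-4 replicate 4 or WT replicate 3), with edgeR adjusted p-values up to 0.128. The interaction, which asks whether the alleles together differ from the sum of their effects on the log2 scale, was called for 0 members by edgeR (0.0355% of all genes). It was -1.20 for pals-16 (SE 0.26, adjusted p = 0.339), a double mutant lower than the sum of the single mutants, and 0.98 for pals-26 (SE 0.30, adjusted p = 0.9999), a double mutant above that sum. Both had an unadjusted p under 0.05 (0.000221 for pals-16 and 0.00474 for pals-26 by edgeR), as did 1.62% of all tested genes. DESeq2 called pals-16 (adjusted p = 0.0058).

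The known regulators other than pals-16 did not pass the test in any comparison, and pals-22 and pals-25 had the smallest standard errors of all members. The repressor pals-22 averaged 9.36 ± 1.12 CPM in edc-3, 8.48 ± 0.849 CPM in edc-4, 9.60 ± 0.393 CPM in double mutant and 9.89 ± 2.07 CPM in WT embryos (SD, n = 4 each). Its antagonist pals-25 averaged 10.1 ± 1.01, 10.9 ± 1.11, 11.5 ± 0.532 and 10.4 ± 1.70 CPM in the same order. The 95% interval of the log2 fold change in the double mutant against WT was -0.36 to 0.27 for pals-22 and -0.14 to 0.43 for pals-25, so a doubling of either lies outside it. The negative regulator pals-17 averaged 2.05 ± 0.675 CPM in edc-3, 1.94 ± 0.476 CPM in edc-4, 2.04 ± 0.362 CPM in double mutant and 2.08 ± 0.578 CPM in WT embryos, with intervals that all spanned 0. The positive regulator pals-20 averaged 0.129 ± 0.0729, 0.148 ± 0.0814, 0.109 ± 0.0367 and 0.0870 ± 0.0413 CPM in that order and was too low to pass the filter. It also overlaps Y82E9BR.5 on the other strand.

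The neighbours of the members that rose were not called with them. In edc-4 embryos against WT, the log2 fold change was -0.22 (SE 0.22) for pals-19, which begins 0.539 kb beyond pals-16 on the same strand, -0.26 (SE 0.16) for pals-18 and -0.10 (SE 0.25) for pals-17. For pals-27, the next member after pals-26, it was 0.29 (SE 0.22) in the double mutant against WT. None of these passed the test. The pseudogene B0284.5, which overlaps the start of pals-26 on the same strand, had 178 counts over all 16 libraries and at most 20 in any. Its log2 fold change in the double mutant against WT was -0.34 (SE 0.38, edgeR adjusted p = 0.674). For B0284.3, which lies 0.414 kb beyond pals-26 on the other strand, the value was 0.13 (SE 0.14, edgeR adjusted p = 0.662).

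No member with a mean level below 1 CPM passed the test in any comparison. All double mutant libraries of pals-5 were higher in CPM than all its edc-3 libraries, where 4.39% of all genes separated in either direction. These levels rested on 8 to 13 counts in each double mutant library and 4 to 8 in each edc-3 library. The gene pals-5, whose promoter drives the standard reporter of the pathogen response, had 0.109 to 0.157 CPM in edc-3, 0.0825 to 0.242 CPM in edc-4, 0.209 to 0.322 CPM in double mutant and 0.0630 to 0.284 CPM in WT libraries. Its log2 fold change in the double mutant against WT was 0.91 (SE 0.41, edgeR adjusted p = 0.423), and WT replicate 4 lay within the double mutant's range. On chromosome V, pals-37 averaged 0.273 ± 0.128 CPM in edc-3, 0.217 ± 0.120 CPM in edc-4, 0.452 ± 0.204 CPM in double mutant and 0.230 ± 0.150 CPM in WT embryos (SD, n = 4 each). Its neighbour pals-39 averaged 0.268 ± 0.159, 0.108 ± 0.148, 0.391 ± 0.188 and 0.210 ± 0.0955 CPM in the same order. Against edc-4, the double mutant had a log2 fold change of 1.10 (SE 0.51) for pals-37 and 1.99 (SE 0.66) for pals-39, with libraries overlapping in both and edgeR adjusted p-values of 0.9999.

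**Figure D4:**
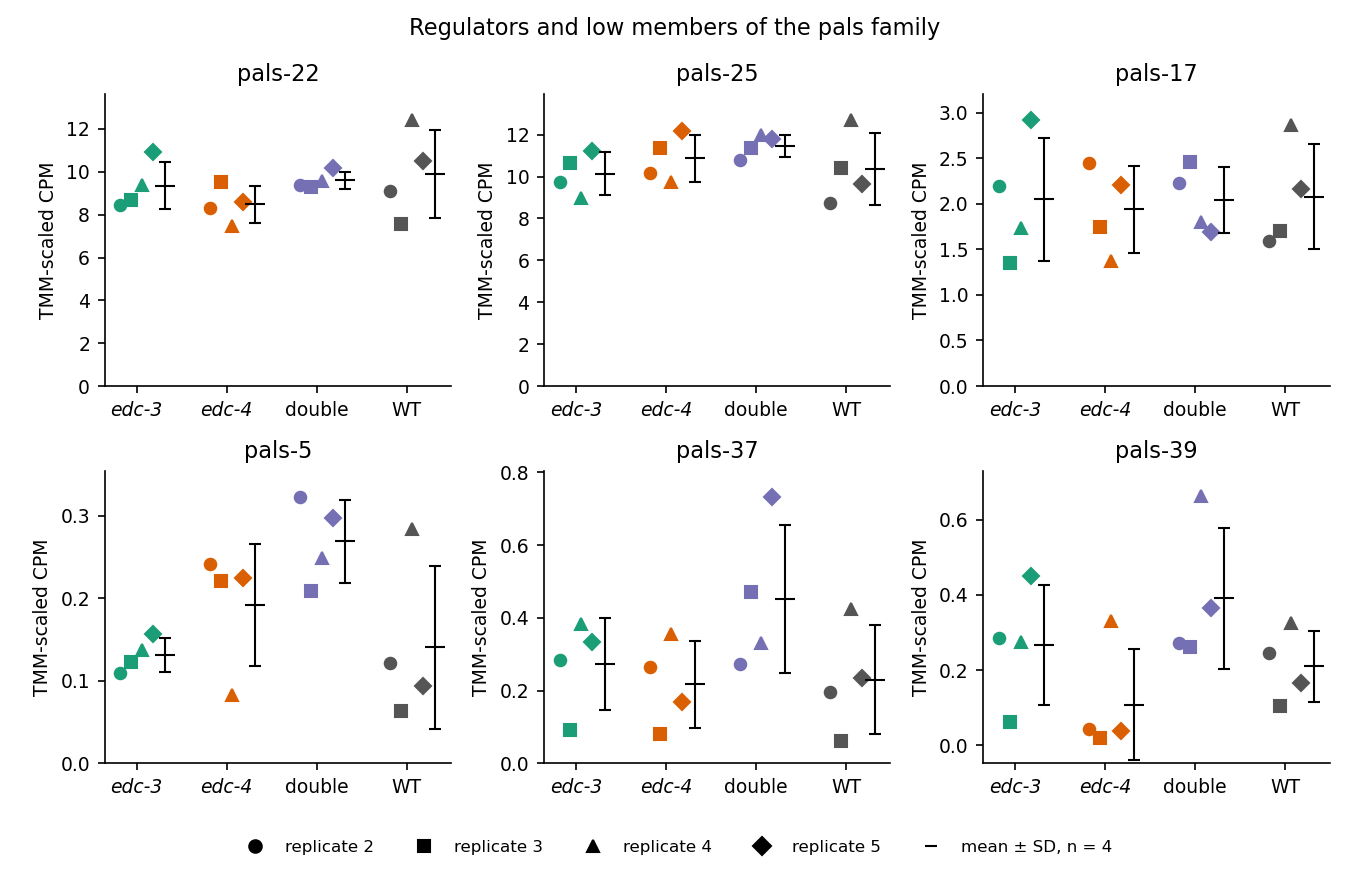
Level in CPM of the regulators pals-22, pals-25 and pals-17 and of the low members pals-5, pals-37 and pals-39 in each library of edc-3, edc-4, double mutant and WT embryos (symbols mark replicates 2 to 5; bars are mean ± SD, n = 4, and reach below 0 for pals-39 in edc-4). The groups overlap for each gene shown except pals-5, whose double mutant libraries (0.209 to 0.322 CPM) lie above its edc-3 libraries (0.109 to 0.157 CPM). These are 8 to 13 and 4 to 8 counts per library.

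Across the 21 tested members both signs occurred, and in each single mutant more members had a negative than a positive value. A positive log2 fold change against WT was found for 6 members in edc-3 embryos, 4 in edc-4 embryos and 11 in double mutants, with medians of -0.07, -0.18 and 0.07. The medians over all tested genes were -0.0046, 0.0050 and -0.0097 for edc-3, edc-4 and double mutant embryos. In the same order, 48.9%, 50.8% and 48.8% of all tested genes had a positive value. In edc-3 embryos the largest values were 0.57 for pals-6, 0.57 for pals-16, 0.40 for pals-39, 0.37 for pals-26 and 0.27 for pals-37, and the lowest were -0.54 for pals-31, -0.35 for pals-19, -0.33 for pals-15, -0.27 for pals-30 and -0.24 for pals-18. In edc-4 embryos pals-5 followed pals-16 with 0.45, then pals-6 with 0.33, pals-25 with 0.07 and pals-27 with -0.06. The lowest values there were -1.11 for pals-39, -0.83 for pals-31, -0.81 for pals-32, -0.42 for pals-34 and -0.27 for pals-23. In the double mutant pals-37 (0.97), pals-5 (0.91) and pals-39 (0.88) followed pals-26, and the lowest were -0.79 for pals-15, -0.51 for pals-31, -0.46 for pals-19, -0.43 for pals-34 and -0.38 for pals-18. Apart from the calls on pals-16 and pals-26, no value in this paragraph passed the test.

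**Figure D5:**
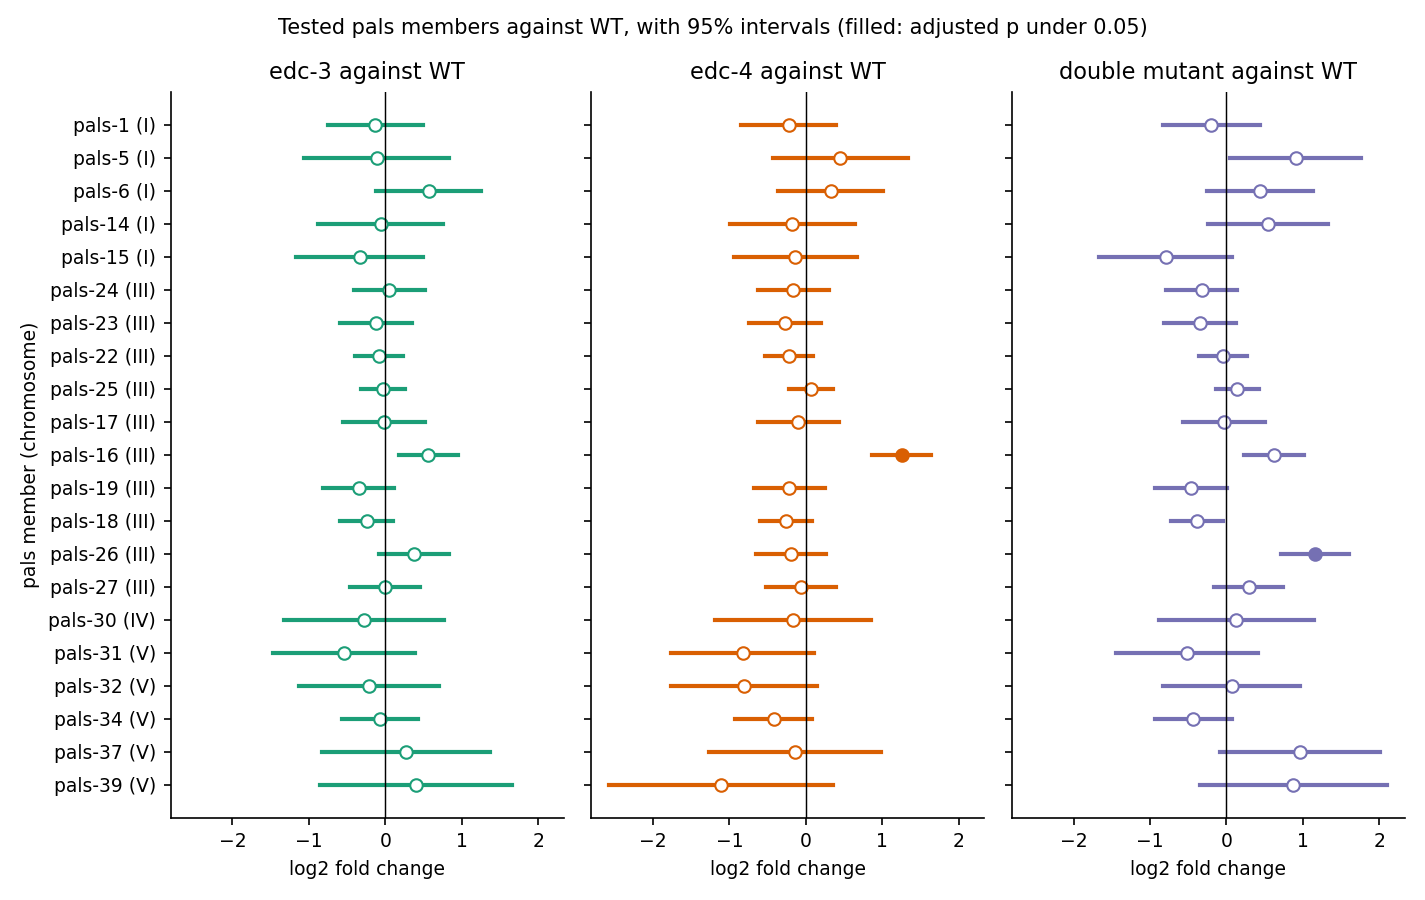
Log2 fold change of the 21 tested members in edc-3, edc-4 and double mutant embryos against WT, with 95% intervals (filled points have an adjusted p under 0.05). Points are filled for pals-16 in edc-4 embryos (1.26) and pals-26 in the double mutant (1.16).

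None of the tested genes on lists of other pathogen response regulators and response genes passed the test. Of 10 regulators and sensors all 10 were tested, and 0 were called in any mutant against WT, with 0 at an unadjusted p under 0.05 and 0 by DESeq2 or limma voom. The RIG-I-like viral RNA sensor drh-1 averaged 49.3 ± 5.29 CPM in edc-3, 46.9 ± 12.5 CPM in edc-4, 46.8 ± 9.55 CPM in double mutant and 42.2 ± 6.33 CPM in WT embryos (SD, n = 4 each). The transcription factor zip-1, which the response needs for a share of its genes, averaged 10.6 ± 1.40, 9.90 ± 2.31, 8.53 ± 1.65 and 10.9 ± 1.72 CPM in that order. The log2 fold changes of largest size in this list were -0.35 (SE 0.19) for zip-1 and 0.33 (SE 0.16) for rde-4, a double-stranded RNA binding partner of Dicer, both in the double mutant.

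Of 16 response genes outside the family, 10 were tested and 0 were called in any mutant against WT by edgeR, DESeq2 or limma voom, with 0 at an unadjusted p under 0.05. Their median log2 fold changes were -0.08, -0.19 and -0.05 for edc-3, edc-4 and double mutant embryos. Of the 16 genes, 11 averaged under 1 CPM over all libraries. The cullin gene cul-6 averaged 2.70 ± 0.830 CPM in edc-3, 2.41 ± 0.269 CPM in edc-4, 2.45 ± 1.01 CPM in double mutant and 2.60 ± 0.599 CPM in WT embryos (SD, n = 4 each). The gene eol-1, a relative of the mammalian decapping exonuclease DXO, averaged 1.04 ± 0.210, 0.710 ± 0.156, 0.906 ± 0.191 and 0.914 ± 0.140 CPM in that order. The largest differences in the list were -0.56 (SE 0.33) for F26F2.1 and -0.54 (SE 0.34) for F26F2.3 in edc-3 embryos. Of 12 intestinal marker genes 0 were called by edgeR, DESeq2 or limma voom, with 0 in edc-3 embryos, 1 in edc-4 embryos and 1 in double mutant embryos at an unadjusted p under 0.05. Their summed level ran over 709 to 866 CPM in edc-3, 586 to 1053 CPM in edc-4, 558 to 817 CPM in double mutant and 728 to 956 CPM in WT libraries.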

How the data were processed

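RNA-seq was made with a stranded total RNA kit from 16 libraries of mixed-stage embryos, 4 genotypes with 4 biological replicates each, grouped by the genotype in the labels. Raw counts per gene make up the table deposited, and per the submitters' processing notes the authors used Trimmomatic, STAR, HTSeq, edgeR and limma with the WBcel235 genome. Versions, annotation and HTSeq's strand option were not given in the sources used here, so a gene and an overlapping antisense partner may share reads.

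Members were matched by identifier, and positions and exon lengths came from Ensembl release 115. In R 4.3.3, 16880 genes passed edgeR's filterByExpr (edgeR 4.0.16, at least 10 counts in enough libraries and 15 in total). All 16 libraries entered 1 quasi-likelihood fit with TMM factors and a mean per genotype (common biological coefficient of variation 0.193). The 8 contrasts were adjusted by Benjamini-Hochberg over all tested genes. CPM are TMM-scaled, and intervals are 95% intervals from the fit. The pipeline was tested on simulated data. Replicates were compared pairwise; none were identical, and the chi-square per degree of freedom was 9.997 to 178, above sampling noise. Alternatives used DESeq2 1.42.0, limma 3.58.1 (voom), other scalings and filters, a stage covariate, a replicate block, and fits without single libraries.

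The members, gene lists and tests were chosen with earlier results of these data known. The list of response genes had 19 entries, of which B0284.1, B0284.2 and B0284.4 proved to be pals-26, pals-27 and pals-28 and were counted with the family. Named with values were members called in any contrast, the known regulators and pals-5, the 5 highest and 5 lowest log2 fold changes in each mutant against WT, the 5 highest members per kb, and up to 4 genes a list. Of the lists, drh-1 and cul-6 were added for their known roles after their values were seen.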

Additional observations from a re-analysis of the deposited data

Results flagged for a closer look

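In each of 84 groups of 4 libraries, 1 for each tested member and genotype, the gap of the highest or lowest library to its neighbour was set against Dixon's 95% critical value for 4 samples, and 3 values stood apart. About 1 group in 20 is marked in this way by chance. The level of pals-5 in edc-4 replicate 4 was the lowest of its group at 0.0825 CPM. In the same library pals-39 was the highest of its group at 0.330 CPM, and this library also had the highest early zygotic sum. The level of pals-15 in WT replicate 3 was the lowest of its group at 0.252 CPM.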

How the results depend on the processing

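The number of members called was 0 or 1 in every setting. For edc-3 against WT and the double mutant against edc-3 it was 0 in all 26 alternatives, and leaving out single libraries gave 0 to 0. For edc-4 against WT it was 1 in 25 of 26 (1 to 1 without single libraries) and 0 with only the groups compared. For the double mutant against WT it was 1 in 20 of 26 (0 to 1 without single libraries) and 0 without TMM factors. For the double mutant against edc-4 it was 1 in 17 of 26 (0 to 1) and 0 without TMM factors, without the libraries numbered 4 and with only the groups compared. For the averaged edc-3 allele it was 1 in 20 of 25 (0 to 1) and 0 without TMM factors. For the averaged edc-4 allele it was 1 in 6 of 25 (0 to 1) and 0 with the replicate block, without TMM factors, without a filter, with a filter of 1 CPM in 4 libraries and without the libraries numbered 4. For the interaction it was 0 in 24 of 25 (0 to 0) and 1 with DESeq2. The cause of these changes was not tested. Of 24 same-numbered pairs of libraries 11 had correlated deviations over 0.1 (from -0.493 to 0.656), 9 of 12 between mutants and 2 of 12 with WT. Mutant libraries numbered 4 deviated together (0.467 to 0.656), as did those numbered 2 (0.163 to 0.389), but no pair of genotypes had all 4 pairs over 0.1, so the numbers were not taken as pairs. With the replicate block, 1 member was called in the double mutant against WT. Over all genes, calls in edc-3, edc-4 and double mutant embryos against WT numbered 24, 24 and 35, against 39, 42 and 113 with DESeq2, 39, 51 and 113 with the stage covariate, 40, 30 and 65 without a filter and 14, 7 and 28 with only the groups compared. For the double mutant against edc-3 and against edc-4 they numbered 6 and 5, against 25 and 12 with DESeq2, 44 and 8 with the stage covariate and 9 and 12 without a filter. For the averaged edc-3 and edc-4 alleles and the interaction they numbered 25, 33 and 6, against 57, 98 and 17 with DESeq2 and, with the stage covariate, 95, 4.09 times as many, and 17; without a filter the averaged edc-3 allele had 50 and the interaction 10. Leaving out single libraries gave 14 to 26, 15 to 27 and 17 to 40 calls over all genes for edc-3, edc-4 and double mutant embryos against WT, 2 to 7 for the double mutant against edc-4 and 17 to 30 for the averaged edc-3 allele. In the main fit 17 members did not pass the filter on low counts and were not tested.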
